A study of Mus musculus with 12 samples.

Results

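PPARA is a nuclear receptor that is activated by fatty acids and switches on genes for their breakdown in the liver. Fatty acids are burned mainly by beta-oxidation in mitochondria, which long-chain acids enter through the carnitine shuttle, while very long chains are shortened in peroxisomes. Omega-oxidation by cytochrome P450 enzymes of the endoplasmic reticulum (the microsomal fraction) is a side route, and acyl-CoA thioesterases release free fatty acids from coenzyme A. Activation of PPARA in rodents raises the peroxisomal, microsomal and thioesterase genes steeply.

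The genes followed here are Ppara and 8 of its targets, namely Cyp4a10 and Cyp4a14 (microsomal), Acot1 (cytosolic), Acot3 and Ehhadh (peroxisomal), and Cpt1a, Cpt2 and Acadm (mitochondrial). They were chosen by name, with earlier results of these data known, so the counts below describe these genes and are not a test of the choice. Every peak whose gene annotation held one of these symbols was taken. This gave 48 of the 37118 peaks in the table, all of which passed the filter on low counts. Ppara had 23 peaks, Cpt2 and Ehhadh 5 each, Acot1, Acot3, Cpt1a and Acadm 3 each, Cyp4a14 2 and Cyp4a10 1. Peaks of 1 gene come from the same transcripts, so they are not replicates of a condition.

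The values come from MeRIP-seq, in which RNA fragments carrying N6-methyladenosine (m6A, a methyl mark on adenosine) are pulled down with an antibody and sequenced. Livers were from male wild-type C57BL/6 mice, taken in at 6 to 8 weeks of age, with 3 cadmium samples (20 mg/kg CdCl2 by gavage each day) and 3 control samples (0 mg/kg) at day 90. Each group had 6 animals per the labels, and how the 3 samples relate to them is not stated, so p-values measure the spread between these samples. The 6 libraries held 40174736 to 52338612 counts in peaks.

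The table heads its count columns by library numbers that IP and input share, and they are read here as IP counts because each row is an m6A peak. Input RNA was not analysed here, so the amount of a gene's RNA and its methylated share cannot be told apart. In bulk liver, fewer cells of a type and less RNA per cell cannot be told apart either. The metallothionein genes Mt1 and Mt2, which metals induce, were higher in cadmium samples at all 4 of their peaks, with log2 changes of 3.16 to 4.24. Of 5 hepatocyte markers 4 had a peak and 0 were called, and their summed level was 7289 to 8449 CPM in cadmium and 7469 to 8323 CPM in control samples. Among 4 measured macrophage markers Cd5l and Csf1r were higher, while Clec4f (log2 change 0.14) and Marco (-0.35) were not called. The summed level of these 4 markers was 126 to 159.6 CPM in cadmium and 84.5 to 114 CPM in control samples. At the leading peak Col1a1 was the 1 called of 5 stellate cell markers and Lyve1 the 1 called of 4 measured endothelial markers, both higher in cadmium samples. The summed stellate level was 115 to 141 CPM in cadmium and 76.6 to 100.1 CPM in control samples. The summed endothelial level was 77.3 to 113 CPM in cadmium and 69.8 to 111 CPM in control samples. None of the measured biliary (3), lymphocyte (1) and erythroid (1) markers was called. The biliary markers had log2 changes of 0.77 to 1.29, the lymphocyte marker 0.84 and the erythroid marker 0.14. The summed biliary level was 18.7 to 66.7 CPM in cadmium and 22.4 to 29.6 CPM in control samples. None of 4 adipocyte markers had a peak. The part of these cell types in the results below was not tested.

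All 48 peaks had a log2 change below 0, against 50.5% of all 37088 peaks tested, and their median was -0.28 against -0.00312 over all peaks. Of the 48 peaks 23 belong to Ppara, and 18 of those may not be separate measurements, as described below. By gene, the peaks with the highest mean level in each of the 9 genes changed by -1.71 to -0.20. Their median was -0.38, against 0.02 over such peaks of all 13050 genes. Called lower were 9 peaks, and called higher were 0, at an adjusted p below 0.05 (edgeR's quasi-likelihood test, Benjamini-Hochberg adjustment). Of all tested peaks 2.72% were called lower, 3.55% higher and 6.27% in either direction. The 9 peaks were every peak of Cyp4a10, Cyp4a14, Acot1 and Acot3, while 0 of the 39 peaks of Ppara, Ehhadh, Cpt1a, Cpt2 and Acadm were called. Without cadmium replicate 3 the count of called peaks was 4. At an unadjusted p below 0.05 there were 14 peaks, the other 5 being 3 of Ehhadh, 1 of Acadm and 1 of Ppara, all with a log2 change below 0. Of all tested peaks 21.8% had such a p, and 9.95% had it with a log2 change below 0. The authors' deposited table marks 9 of the 48 peaks as Down and 0 as Up, and they are the same 9, where that table marks 1.58% of all peaks as Down. DESeq2, run here on the same counts, called these 9 and no other of the 48, where it called 9.92% of all peaks in either direction. Its log2 changes and adjusted p for the 48 peaks equal those of the deposited table after rounding, so it is not a separate check. The settings behind the Down mark are not stated. The Down share and the DESeq2 share, which covers both directions, may therefore rest on different thresholds.

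**Figure D1:**
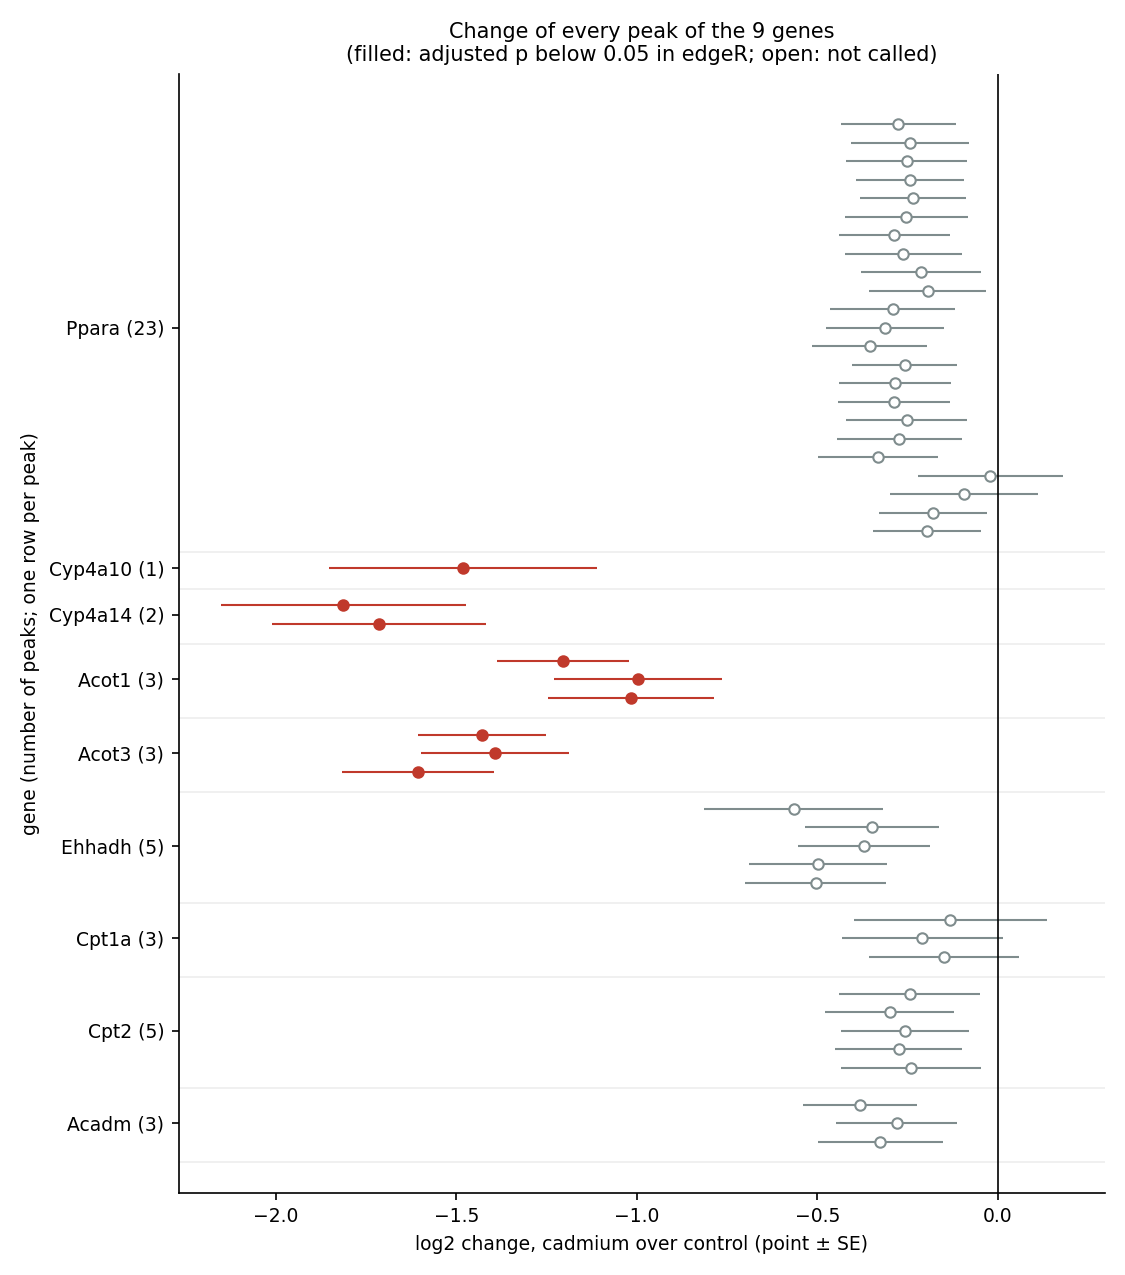
Log2 change of every peak of the 9 genes, cadmium over control, as points with bars of ± 1 SE, in 1 row per peak ordered by position. The 9 filled points of Cyp4a10, Cyp4a14, Acot1 and Acot3 lie at or below -0.997, and the 39 open points lie between -0.57 and -0.02.

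Both microsomal fatty acid hydroxylases were lower in cadmium samples. Cyp4a14, which adds a hydroxyl group to the far end of medium- and long-chain fatty acids, had its leading peak (the peak with the highest mean level of the gene) at chr4:115486558-115486828 on mm10. Levels are given as CPM, the count divided by the library's total and multiplied by a fixed constant, scaled between libraries by the TMM method. This peak had 26.8, 47.5 and 26.5 CPM in cadmium replicates 1, 2 and 3, against 66.6, 135 and 129 CPM in control replicates 1, 2 and 3. Every cadmium sample was below every control sample, and control replicate 1 was the lowest control. The level was 3.28-fold lower in cadmium samples (33.6 ± 12.0 CPM in cadmium and 110.2 ± 37.9 CPM in control samples, SD, n = 3 each, log2 change -1.71, SE 0.30, edgeR adjusted p = 0.00956). The second peak of the gene, which lies closer to the edge of the gene, gave a log2 change of -1.81 (SE 0.34, edgeR adjusted p = 0.0132). Without cadmium replicate 3 neither peak was called (edgeR adjusted p = 0.0542 and 0.0717).

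Cyp4a10, its close relative in the same gene cluster, had 1 peak at chr4:115533178-115533631. It had 25.9, 45.5 and 28.0 CPM in cadmium replicates 1, 2 and 3, against 42.3, 142 and 92.8 CPM in control replicates 1, 2 and 3. Here the groups overlapped, since control replicate 1 was below cadmium replicate 2. The log2 change was -1.48 (SE 0.37, edgeR adjusted p = 0.0414). Leaving out any of cadmium replicates 1 and 3 and control replicates 2 and 3 ended the call (edgeR adjusted p 0.105 to 0.16), and the log2 change ranged between -1.83 and -1.02 over the 6 leave-outs. In replicate 2 both hydroxylases were higher than in replicate 1, in cadmium and in control samples alike. Members of this gene family are similar in sequence and may share reads, and the treatment of such reads is not stated in the sources.

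**Figure D2:**
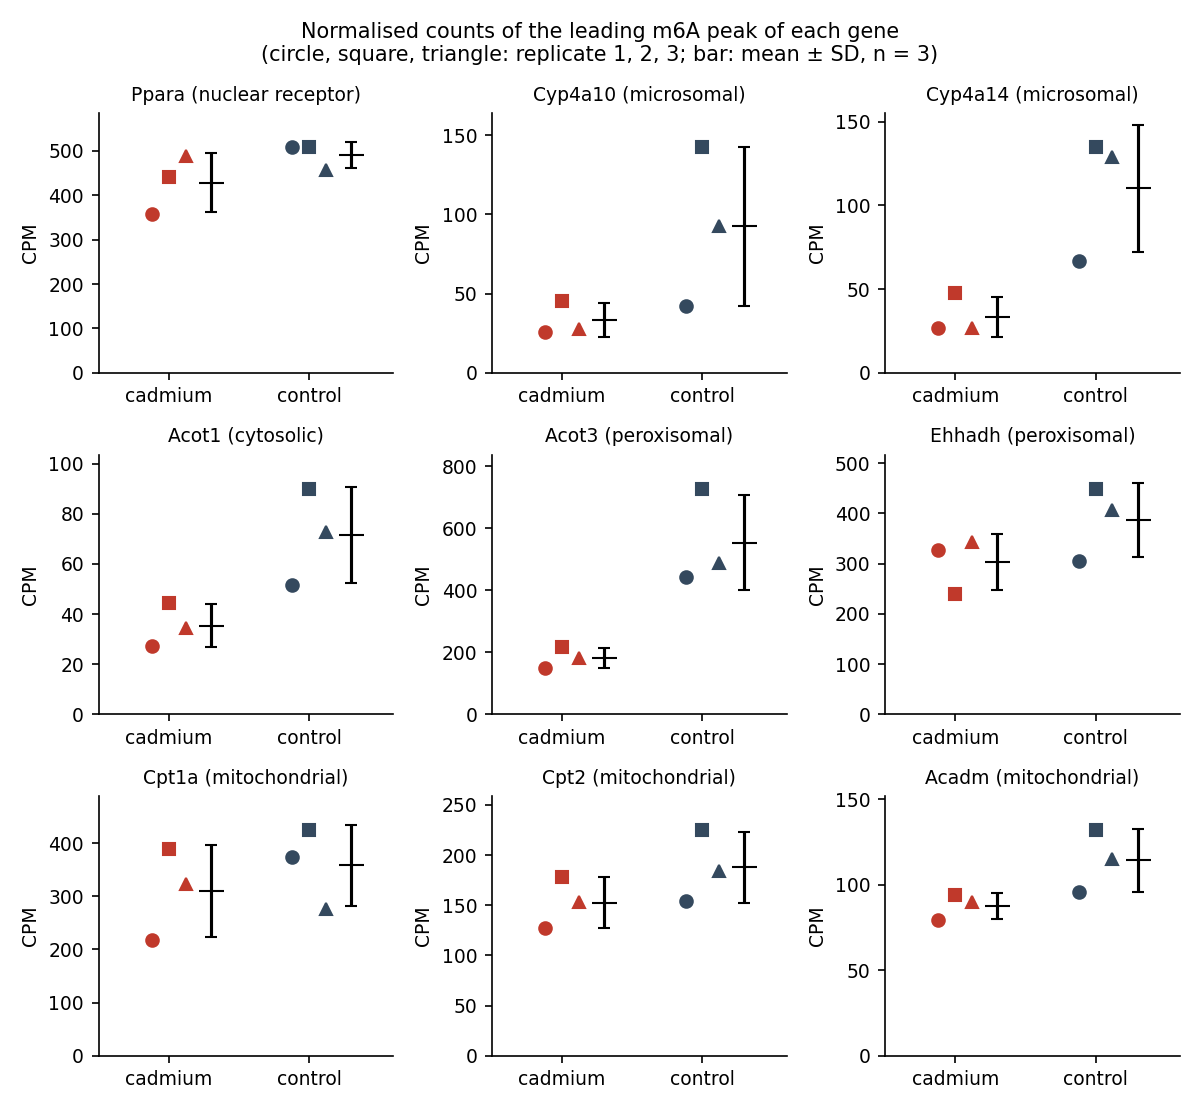
Normalised counts (CPM, linear axes starting at 0) of the leading peak of each gene in 3 cadmium and 3 control samples, with mean ± SD beside them. Cadmium samples lie below all control samples for Cyp4a14, Acot1, Acot3 and Acadm, and the groups overlap for the other 5 genes.

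Acyl-CoA thioesterases split fatty acyl-CoA into free fatty acid and coenzyme A, and Acot1 is the cytosolic member of the family. Its 3 peaks lie at the start, in the middle and at the end of the gene, and all 3 were lower in cadmium samples. The leading peak at chr12:84016813-84017664 ends 6 bases from the 3′ end of the gene in the RefSeq annotation of GRCm38.p6. It had 27.3, 44.3 and 34.3 CPM in cadmium replicates 1, 2 and 3, against 51.7, 90.1 and 72.6 CPM in control replicates 1, 2 and 3. The groups did not overlap, and replicate 2 was the highest of each group. The level was 2.02-fold lower in cadmium samples (log2 change -1.02, SE 0.23, edgeR adjusted p = 0.0285). The first peak, near the start of the gene, changed by -1.20 (SE 0.18, edgeR adjusted p = 0.00529) and stayed called in all 6 leave-outs. Leaving out any of these same 4 samples (cadmium 1 and 3, control 2 and 3) ended the calls of the other 2 peaks (edgeR adjusted p 0.0741 to 0.141).

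Acot3, a peroxisomal thioesterase, was lower at all 3 of its peaks. Its leading peak at chr12:84058401-84060072 had 149, 216 and 181 CPM in cadmium replicates 1, 2 and 3, against 443, 728 and 489 CPM in control replicates 1, 2 and 3. The highest cadmium sample was below the lowest control sample. The level was 3.04-fold lower in cadmium samples (182 ± 33.4 CPM in cadmium and 553 ± 153 CPM in control samples, SD, n = 3 each, log2 change -1.61, SE 0.21, edgeR adjusted p = 0.00268). The remaining peaks changed by -1.43 and -1.39 (edgeR adjusted p = 0.00204 and 0.00458). All 3 peaks were called in each of the 6 leave-outs. Each also carries the symbol Gm49366, and 1 of them 4732463B04Rik too, so their reads cannot be assigned to Acot3 alone.

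Acot1 and Acot3 lie in a cluster of related thioesterase genes, and the neighbours are shown because the change covered most of the cluster. Acot4, also peroxisomal, lies between them and was lower at all 6 of its peaks, with log2 changes of -1.32 to -1.01. Its leading peak averaged 67.0 ± 6.22 CPM in cadmium and 162 ± 41.4 CPM in control samples (SD, n = 3 each, log2 change -1.27, SE 0.19, edgeR adjusted p = 0.00488). These peaks carry Gm49366 as well, and 5 of the 6 also carry 4732463B04Rik. Acot5, a further peroxisomal member, was low in level, at 0.92, 1.16 and 1.41 CPM in cadmium replicates 1, 2 and 3, against 2.22, 3.31 and 2.97 CPM in control replicates 1, 2 and 3 (log2 change -1.28, SE 0.26, edgeR adjusted p = 0.0196). The 4 peaks of the mitochondrial member Acot2 had log2 changes of -0.95 to -0.36 and were not called (edgeR adjusted p 0.0635 to 0.485). The single peak of Acot6, chosen after its value was seen, had a log2 change of -0.07 (SE 0.27, edgeR adjusted p = 0.906). Whether the genes of the cluster differed from each other was not tested. Related genes of this cluster may share reads as well, and the treatment of such reads is not stated in the sources.

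**Figure D3:**
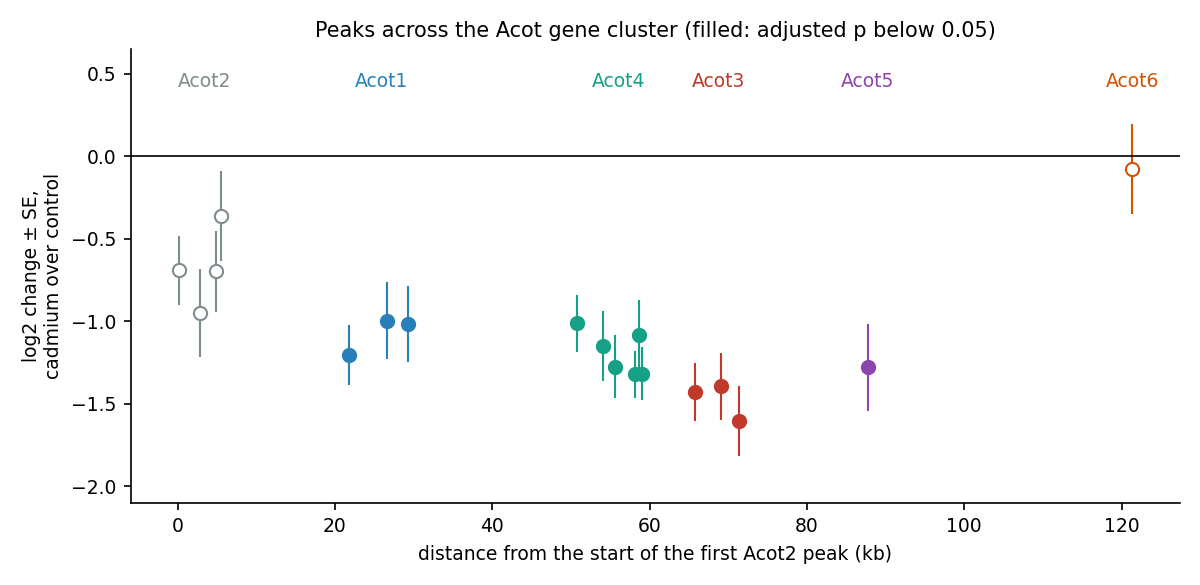
Log2 change (cadmium over control, points ± 1 SE) of the 18 peaks of the Acot gene cluster on chromosome 12, against distance from the first Acot2 peak in kb. Filled points of Acot1, Acot4, Acot3 and Acot5 lie between -1.61 and -0.997, and the open points of Acot2 and Acot6 lie between -0.95 and -0.07.

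PPARA binds DNA together with RXR at direct repeats of the hexamer AGGTCA with 1 base between them. The 250 bases upstream of the annotated start were searched on both strands in the RefSeq promoter table (GRCm38.p6), which held 7 of the 9 genes. Cyp4a10 and Cyp4a14 were not matched. Printed below are the promoters of Acot1 and Acot3, whose peaks were lower, beside those of Cpt1a and Acadm, whose peaks were not called, with each AGGTCA (or its reverse complement TGACCT) in capitals. They run 5′ to 3′ on the strand of the gene, at chr12:84009252-84009501 (plus strand), chr12:84051894-84052143 (plus strand), chr19:3323051-3323300 (plus strand) and chr3:153944644-153944893 (minus strand).
Acot1: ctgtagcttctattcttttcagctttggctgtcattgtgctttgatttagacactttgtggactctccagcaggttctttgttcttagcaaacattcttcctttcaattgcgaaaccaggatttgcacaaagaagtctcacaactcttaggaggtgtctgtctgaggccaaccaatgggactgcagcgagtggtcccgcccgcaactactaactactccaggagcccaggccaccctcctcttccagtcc
Acot3: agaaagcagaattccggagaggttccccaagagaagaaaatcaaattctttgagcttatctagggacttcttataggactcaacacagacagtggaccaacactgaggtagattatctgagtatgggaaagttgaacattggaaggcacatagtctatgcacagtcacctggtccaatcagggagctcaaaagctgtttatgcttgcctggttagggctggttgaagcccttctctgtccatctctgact
Cpt1a: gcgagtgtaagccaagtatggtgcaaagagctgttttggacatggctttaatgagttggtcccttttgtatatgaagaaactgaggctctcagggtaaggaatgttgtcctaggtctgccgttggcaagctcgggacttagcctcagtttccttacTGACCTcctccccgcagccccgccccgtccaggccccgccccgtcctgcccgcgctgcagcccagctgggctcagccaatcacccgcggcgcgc
Acadm: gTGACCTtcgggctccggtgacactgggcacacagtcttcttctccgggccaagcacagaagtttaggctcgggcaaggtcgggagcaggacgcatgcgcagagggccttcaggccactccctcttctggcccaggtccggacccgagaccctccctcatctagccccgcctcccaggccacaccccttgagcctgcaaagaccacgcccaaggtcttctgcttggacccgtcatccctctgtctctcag
The hexamer occurred once in the Cpt1a window, 94 bases upstream of the start, and once in the Acadm window, 249 bases upstream, and in 0 of the windows of Acot1, Acot3, Ppara, Ehhadh and Cpt2. It was present in 14.0% of all 32851 promoters. The full repeat AGGTCANAGGTCA, which contains the hexamer, was found in 0 of 8 promoter windows of these genes and in 0.0335% of all promoters. A window without these letters says nothing about binding elsewhere.

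Ehhadh encodes the peroxisomal bifunctional enzyme, which carries out the hydration and dehydrogenation steps of beta-oxidation there. Its leading peak at chr16:21762490-21763325 had 327, 240.2 and 344 CPM in cadmium replicates 1, 2 and 3, against 305, 449 and 406 CPM in control replicates 1, 2 and 3. The groups overlapped, with cadmium replicate 2 the lowest sample and control replicate 1 below the other 2 cadmium samples. At the leading peaks of Cyp4a14, Cyp4a10, Acot1, Acot3, Cpt1a, Cpt2 and Acadm, replicate 2 was the highest cadmium sample. That order was therefore not particular to the called genes, and Ehhadh and Ppara did not have it. The log2 change was -0.35 (SE 0.19, edgeR adjusted p = 0.307), and it was -0.20 without cadmium replicate 2 and -0.23 without control replicate 2. The 5 peaks ranged between -0.57 and -0.35 with edgeR adjusted p of 0.156 to 0.307. In 2 of them every cadmium sample was below every control sample, where 12.5% of all tested peaks had this.

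The mitochondrial genes were not called at any of 11 peaks, where 6.27% of all tested peaks were called in either direction. A count of 0 among so few peaks does not set these genes apart from other genes. Cpt1a, the outer membrane enzyme that controls entry of long-chain fatty acids, had 217, 389 and 323 CPM in cadmium replicates 1, 2 and 3, against 373, 425 and 276 CPM in control replicates 1, 2 and 3 at chr19:3383670-3385041. Cadmium replicate 1 was the lowest sample and the groups overlapped (log2 change -0.21, SE 0.22, edgeR adjusted p = 0.635). Without control replicate 2 that log2 change was -0.072, and without cadmium replicate 2 or control replicate 3 it was -0.40 or -0.37. Without cadmium replicate 1 it was -0.00129, and those of the other Cpt1a peaks were 0.15 and 0.021.

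Cpt2, the inner membrane enzyme that reforms acyl-CoA inside the mitochondrion, had 127, 178 and 153 CPM in cadmium replicates 1, 2 and 3, against 155, 225 and 184 CPM in control replicates 1, 2 and 3 at chr4:107906919-107908251. The groups overlapped, although the cadmium sample was the lower one in each of the 3 batches (log2 change -0.30, SE 0.18, edgeR adjusted p = 0.367). Without control replicate 2 this was -0.15, and without cadmium replicate 1 it was -0.18. Acadm, the dehydrogenase for medium-chain acyl-CoA, had 79.0, 94.0 and 89.8 CPM in cadmium replicates 1, 2 and 3, against 95.7, 132 and 115 CPM in control replicates 1, 2 and 3 at chr3:153922436-153923013. Here the cadmium samples lay just below the control samples without overlap, but the difference did not pass (log2 change -0.38, SE 0.16, edgeR adjusted p = 0.189). Of the 48 peaks 15 had every cadmium sample below every control sample, among them 8 of the 9 called peaks, against 12.5% of all tested peaks.

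Ppara itself was not called at any peak. Its leading peak at chr15:85800994-85802973 had 357, 441 and 488 CPM in cadmium replicates 1, 2 and 3, against 508, 509 and 457 CPM in control replicates 1, 2 and 3. Cadmium replicate 3 was above control replicate 3, so the groups overlapped (429 ± 66.6 CPM in cadmium and 491 ± 30.0 CPM in control samples, SD, n = 3 each, log2 change -0.20, SE 0.15, edgeR adjusted p = 0.49). Without cadmium replicate 1 this log2 change was -0.073, and without cadmium replicate 3 it was -0.30. The 23 peaks had log2 changes of -0.35 to -0.02, with the smallest edgeR adjusted p at 0.226. The first 18 of them, between positions 85738503 and 85767748, were 113 to 594 bases wide but held counts within a narrow range in each sample. They held 689 to 917, 928 to 1370 and 884 to 1106 counts each in cadmium replicates 1, 2 and 3, and 1187 to 1429, 864 to 1260 and 1048 to 1349 counts each in control replicates 1, 2 and 3. The leading peak held 15101, 24389 and 22444 counts in cadmium replicates 1, 2 and 3, and 24961, 25529 and 20153 counts in control replicates 1, 2 and 3. The counting of reads that span introns is not stated in the sources and its part was not tested, so these 18 peaks may not be separate measurements.

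Summed over all peaks of a gene, 4 of the 9 genes were called, all lower, where 4.17% of 13050 genes were called lower and 10.2% in either direction. The log2 changes of these sums were -1.76 for Cyp4a14 (SE 0.30, edgeR adjusted p = 0.00947), -1.56 for Acot3 (SE 0.18, edgeR adjusted p = 0.00199), -1.49 for Cyp4a10 (SE 0.37, edgeR adjusted p = 0.035) and -1.07 for Acot1 (SE 0.20, edgeR adjusted p = 0.0125). Ehhadh (-0.41), Acadm (-0.36), Cpt2 (-0.30), Ppara (-0.24) and Cpt1a (-0.21) were not called (edgeR adjusted p 0.108 to 0.573). The Ppara sum includes the 18 peaks that may not be separate measurements, so the same reads may enter it more than once. Without cadmium replicate 3 the number of genes called was 2, Cyp4a14 and Acot3. A difference between the peaks of 1 gene was tested as well. In the 7 genes that could be tested for a difference between their own peaks (edgeR's diffSpliceDGE), 0 were called and 0 had an unadjusted p below 0.05, where 0.0911% of 6584 genes were called. Their unadjusted p were all high, at 0.898 to 0.994 (diffSpliceDGE), and the test called few genes anywhere. The 0 therefore does not show that the peaks of a gene moved alike. For Ppara the test also took those 18 peaks as separate.

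To set the microsomal, cytosolic and peroxisomal steps against a mitochondrial one, the log2 ratio of leading peaks to Acadm was taken within each sample. No ratio was taken for Cyp4a10, the other microsomal gene, whose own levels overlapped between groups, so Cyp4a14 alone stands for the microsomal step here. Cyp4a14 to Acadm was -1.56, -0.99 and -1.76 in cadmium replicates 1, 2 and 3, against -0.52, 0.03 and 0.17 in control replicates 1, 2 and 3. The groups did not overlap, and the difference was -1.33 (exact two-sided permutation p = 0.1, the smallest that 3 against 3 samples allow). Acot1 to Acadm was -1.53, -1.08 and -1.39 in cadmium replicates 1, 2 and 3, against -0.89, -0.55 and -0.66 in control replicates 1, 2 and 3, again without overlap (difference -0.64, exact two-sided permutation p = 0.1). Both peroxisomal genes were set against Acadm as well. Acot3 to Acadm, a ratio added after the data were seen, was 0.91, 1.20 and 1.01 in cadmium replicates 1, 2 and 3, against 2.21, 2.46 and 2.09 in control replicates 1, 2 and 3, without overlap (difference -1.21, exact two-sided permutation p = 0.1). Ehhadh to Acadm was 2.05, 1.35 and 1.94 in cadmium replicates 1, 2 and 3, against 1.67, 1.77 and 1.82 in control replicates 1, 2 and 3. These values overlapped and differed by 0.02, less than the spread between samples (exact two-sided permutation p = 1). The sign of this small difference turned in 5 of the alternatives tried, and it holds no direction. With 4 raw tests and a floor of 0.1, no ratio could pass a threshold of 0.05.

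**Figure D4:**
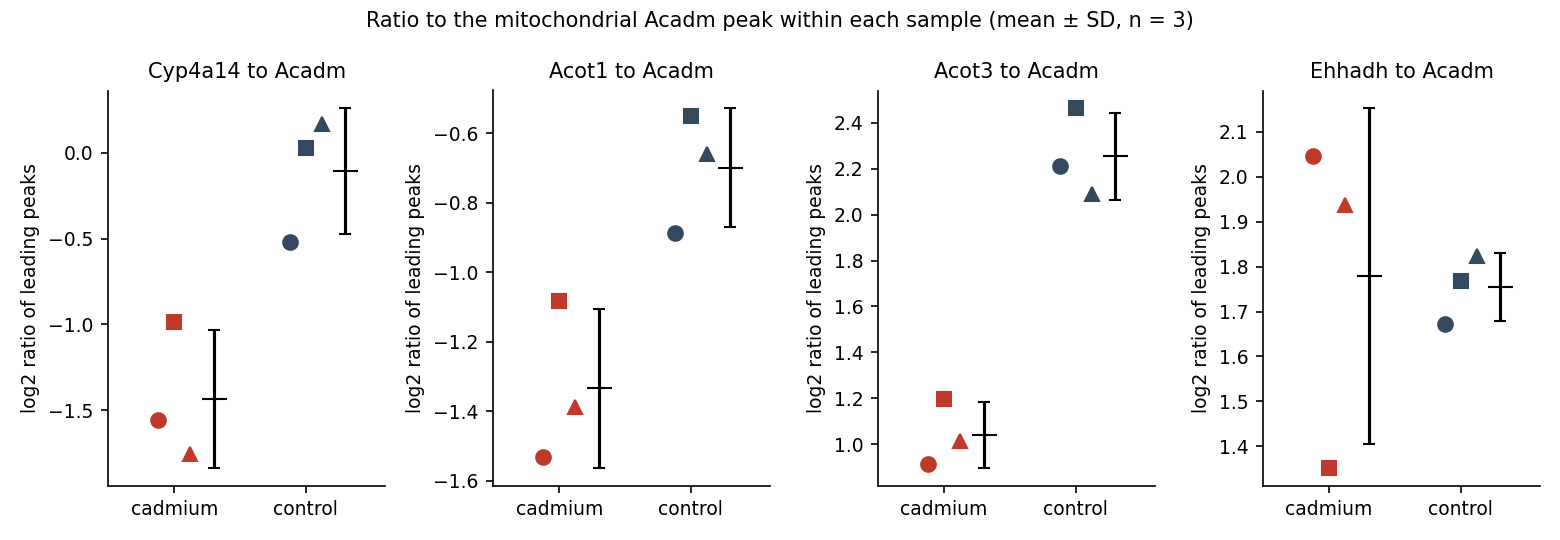
Log2 ratio of the leading peak of Cyp4a14, Acot1, Acot3 and Ehhadh to that of Acadm in each cadmium and control sample, with mean ± SD beside the points (circle, square and triangle for replicates 1, 2 and 3). The groups are apart for Cyp4a14, Acot1 and Acot3 and overlap for Ehhadh.

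Within batches, which the labels number 1 to 3 with 1 cadmium and 1 control sample each, the log2 differences of Cyp4a14 were -1.31, -1.51 and -2.28. Those of Cyp4a10 were -0.70, -1.65 and -1.73, those of Acot1 were -0.92, -1.02 and -1.08, and those of Acot3 were -1.57, -1.76 and -1.43. The cadmium sample was the lower one in each of the 3 batches at all 9 called peaks and at 21 of the 39 others. Of all tested peaks 24% did so. The 21 were 11 of Ppara, all 5 of Cpt2, all 3 of Acadm and 2 of Ehhadh. Most Ppara peaks (18 of 23) may not be separate measurements. The leading Acadm peak differed by -0.28, -0.49 and -0.35, and that of Cpt2 by -0.28, -0.34 and -0.26. The leading Ppara peak differed by -0.51, -0.21 and 0.10, that of Cpt1a by -0.78, -0.13 and 0.23, and that of Ehhadh by 0.10, -0.90 and -0.24, each with both signs.

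Leading peaks can be ranked by level once divided by their width. In cadmium samples the order was Ehhadh (363 ± 66.5 CPM per kb of peak), Cpt1a (226 ± 63.2), Ppara (217 ± 33.6), Acadm (152 ± 13.4), Cyp4a14 (124 ± 44.3), Cpt2 (114 ± 19.0), Acot3 (109 ± 20.0), Cyp4a10 (72.9 ± 23.7) and Acot1 (41.4 ± 10.1). In control samples it was Ehhadh (463 ± 88.5 CPM per kb), Cyp4a14 (407 ± 139.7), Acot3 (331 ± 91.4), Cpt1a (261 ± 55.2), Ppara (248 ± 15.1), Cyp4a10 (204 ± 110.3), Acadm (197 ± 31.4), Cpt2 (141 ± 26.6) and Acot1 (83.9 ± 22.5), each mean ± SD with n = 3. Neighbours whose samples did not overlap were Ehhadh and Cpt1a, Ppara and Acadm, and Cyp4a10 and Acot1 in cadmium samples, and Cpt2 and Acot1 in control samples. All other neighbours overlapped. The leading peak lay 6 to 3878 bases from the 3′ end of the gene in the 7 genes with a strand in the promoter table, and 18 and 358 bases from the nearest gene end in Cyp4a10 and Cyp4a14.

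Around these genes, 97 others of the pathway were sorted by step, and 89 had a peak. At the leading peak 3 were lower and 0 higher, where 2.4% of 13050 genes were lower and 4.4% higher. With the replicate as a block 8 were called, with DESeq2 7, without cadmium replicate 2 7, and without cadmium replicate 3 or control replicate 3 just 1. Over all peaks 3144 were called with the block and 3683 (9.92%) with DESeq2, against 2325 in the fit reported. Without cadmium replicate 2, cadmium replicate 3 or control replicate 3 the calls over all peaks were 1659, 543 or 1078. The median log2 change of the 89 genes was -0.13, against 0.02 over the leading peaks of all genes. Of 6 measured genes of microsomal omega-oxidation 1 was lower, namely Aldh3a2, the fatty aldehyde dehydrogenase that finishes the route opened by the Cyp4a enzymes. It averaged 145 ± 19.1 CPM in cadmium and 243 ± 39.2 CPM in control samples (SD, n = 3 each, log2 change -0.75, SE 0.16, edgeR adjusted p = 0.0244). Its call ended when any of cadmium replicates 1 and 3 and control replicates 2 and 3 was left out (edgeR adjusted p 0.0567 to 0.12). Its list mates Cyp4f14 (0.43) and Cyp4a32 (-0.43) were not called.

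Of 23 measured peroxisomal genes 2 were lower, Acot4 and Acot5, and 21 were not called, with a list median of -0.21. The call of Acot5 ended when any of those 4 samples was left out (edgeR adjusted p 0.0519 to 0.0661). Just outside the threshold, and chosen after their values were seen, were Pex11a, which helps peroxisomes divide (log2 change -0.83, edgeR adjusted p = 0.0531), and the carnitine octanoyltransferase Crot (0.61, edgeR adjusted p = 0.0541). Both were called with the replicate as a block (edgeR adjusted p = 0.00928 and 0.0469), in opposite directions. None of 18 measured mitochondrial genes was called, where 2.4% of all genes were lower and 4.4% higher at the leading peak. Their median was -0.15. The largest values there were -0.70 for Acot2, -0.57 for the carnitine transporter Slc22a5 and -0.43 for the carnitine carrier Slc25a20 (edgeR adjusted p 0.113 to 0.231). With the block Acot2 was called (edgeR adjusted p = 0.0299).

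None of the 4 genes of the ketogenesis list was called. None of 12 genes for partners and regulators of the receptor was called, and their largest changes were those of Lpin1 (-0.62, SE 0.49), Creb3l3 (-0.35) and Sirt1 (-0.31). Without control replicate 1 the log2 change of Lpin1 was 0.21. None of 13 genes of fatty acid uptake and activation was called at the leading peak, where Acsl5 (0.44), Slc27a2 (-0.37) and Acsm3 (-0.36) had the largest values, and Acsm1 had 1 called peak of 12 outside its leading peak. Of 13 other measured PPARA targets 0 were called, with a median of -0.41. Among them Retsat (-0.79), the mitochondrial uncoupling protein gene Ucp2 (0.75) and the lipase inhibitor G0s2 (-0.66) had the largest values (edgeR adjusted p 0.0887 to 0.206), and with the block Retsat (edgeR adjusted p = 0.0194) and Ucp2 (edgeR adjusted p = 0.0299) were called.

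**Figure D5:**
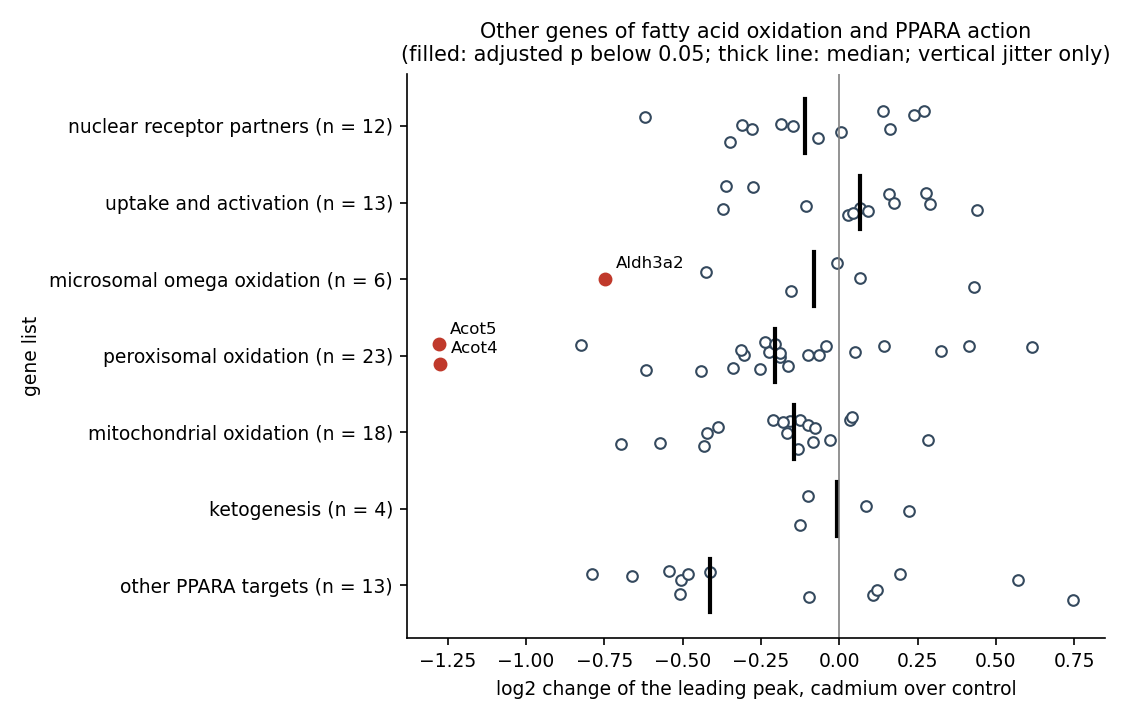
Log2 change of the leading peak (cadmium over control) for 89 other genes of fatty acid oxidation and PPARA action, in 7 lists, with a thick line at each list median. The 3 filled points are Aldh3a2, Acot4 and Acot5, and list medians lie between -0.41 and 0.07.

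Among 7428 genes with a leading peak of at least 10 CPM, the profile of Cyp4a14 over the 6 samples was most like those of Nup50 (Pearson r of log2 CPM 0.999), Top1 (0.998), a peak shared by 9630013K17Rik and Cox10 (0.994), Ago2 (0.993) and Noct (0.992). The log2 changes of these peaks were -0.34 for Nup50, -0.88 for Top1, -0.78 for the shared peak, -0.54 for Ago2 and -3.94 for Noct, and Nup50 and Ago2 were not called (edgeR adjusted p = 0.201 and 0.0772). The profile of Ppara was most like those of Ndufa1 (0.989), Zfp771 (0.981), Clpb (0.971), Zbtb8os (0.96) and Psmc5 (0.955). These are descriptions over 6 samples that share the group difference, and the genes named are the best of 7428.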

How the data were processed

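The labels name 6 IP and 6 input libraries. Per the submitters' processing notes, reads were handled on build mm10 by STAR 2.7.1a, cutadapt 1.1.8, MACS2 2.1.1, DESeq2 4.1.0 and SAMtools 1.3.1, whose order and settings are not stated. The authors deposited raw counts per peak, taken to be those of the IP libraries since each row is an m6A peak (the headers are library numbers that the input shares). The same deposited table holds p-values, raw and adjusted, and log2 fold changes.

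All 37118 peaks entered edgeR 4.0.16 in R 4.3.3: filterByExpr (minimum count 10, minimum total 15, leaving 37088 peaks), TMM and the quasi-likelihood F test, with Benjamini-Hochberg adjustment over all peaks and calls at 0.05. The SE is the absolute log2 change over the square root of F. Samples were grouped by their titles, and members and lists were chosen with earlier results of these data known. Log2 CPM used a prior count of 2. DESeq2 1.42.0 was an alternative. Named pathway genes are those called, plus the largest changes in lists with fewer than 2 calls. Acot6, Pex11a and Crot, and the Acot3 ratio, were chosen after their values were seen. The ketogenesis list is given as a count, and its genes are not reported here by name. The labels give shared batches 1 to 3, whose samples deviated together (r 0.146 to 0.214 within batches, -0.173 to 0.0163 across). Replicates differed beyond sampling noise (chi-square per degree of freedom 31.9 to 161). The fit was tested on simulated counts drawn without batches or reads shared between peaks, so those features of the data were not covered.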

Additional observations from a re-analysis of the deposited data

How the results depend on the processing

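The 48 peaks kept their direction and their side of the threshold with RLE size factors, no filter on low counts, the 2 largest peaks left out, DESeq2 and the replicate block, with 9 calls each time. Over all peaks DESeq2 called 3683 and the replicate block 3144, against 2325, and leaving out 1 sample gave 543 to 1976. The lowest counts came without cadmium replicate 3 and, at 1078, without control replicate 3. Leave-outs gave 4 to 9 called peaks and 2 to 4 called genes among the 9 genes, and 0 genes called for a difference between their own peaks. Of the pathway genes, chosen as a result after seeing the data, 8 were called with the replicate block, 7 with DESeq2 and 1 to 7 in leave-outs. The cause was not tested.

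The log2 ratio of Ehhadh to Acadm, 0.02 as reported, was -0.064 from summed counts, -0.051 against Cpt2 and -0.11 to 0.24 in leave-outs, and its block value was 0.02. The other ratios kept their sign. Leave-outs gave log2 changes of both signs for Ppara peak 20 (-0.17 to 0.14), Ppara peak 21 (-0.24 to 0.092), Cpt1a peak 1 (-0.41 to 0.15), Cpt1a peak 3 (-0.32 to 0.021) and Lpin1 (-1.03 to 0.21), none of them called.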
